A study of Mus musculus with 16 samples.

Results

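Transcripts of 8 sarcolemmal calcium, sodium and pacemaker channel subunits were measured in ventricular myocytes of mice whose hearts had been under pressure overload. The 8 genes were chosen by symbol (Cacna1c, Cacnb2, Cacna2d1, Cacna1g, Cacna1h, Scn4b, Hcn2 and Hcn4), with earlier results of these data known. All were present among the 35682 genes of the count table. Counts were high enough to test 7 of them, the exception being Cacna1h.

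Each heartbeat in a ventricular myocyte starts with sodium entry through voltage-gated channels, followed by calcium entry through L-type channels, which triggers calcium release from the sarcoplasmic reticulum and contraction. An L-type channel is an assembly of a pore, a cytoplasmic beta subunit and an extracellular alpha-2-delta subunit, and beta-adrenergic stimulation through protein kinase A increases its current. T-type calcium channels and HCN channels (hyperpolarization-activated, gated also by cyclic AMP) are typical of pacemaker cells and of the developing heart, and their re-expression in the ventricle has been described in hypertrophy.

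The study compared 8 wild-type (WT) littermates with 8 carriers of the transgene B3AR-Tg, a line named for the beta-3 adrenergic receptor. Both genotypes had undergone TAC, in which the aorta is narrowed by surgery (transverse aortic constriction), and were sampled 9 weeks later, so a heart without surgery is not among the groups. Myocytes were obtained by Langendorff perfusion and plated for 1 hour, and 500 ng of RNA was ribodepleted and made into stranded libraries. Strain, age, sex and the promoter and species of the transgene were not given in the sources used here.

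Library totals ran from 5985335 to 14365864 counts. Mouse Adrb3 held 0 to 4 counts in WT and 0 to 3 in B3AR-Tg, so it does not check the labels. Adgrb3, a different gene, held 0 to 3 counts in every WT library and 247 to 723 in every B3AR-Tg library. Whether the Adgrb3 counts hold reads of the transgene could not be determined. Transcripts of ventricular myocytes were abundant, with 7 markers such as Myh6 and Tnnt2 summing to between 30750 and 42070 CPM (counts per 1000000, with libraries scaled by TMM factors) in WT and between 37940 and 46220 in B3AR-Tg. Markers of other cells were low but not equal between genotypes. The score over 18 tested markers of fibroblasts, endothelial cells, mural cells and leukocytes, a mean of log2 CPM centred on each gene, was 0.37 ± 0.24 (SD, n = 8) in WT and -0.37 ± 0.56 (SD, n = 8) in B3AR-Tg. In bulk RNA, fewer cells of a type and less RNA per cell cannot be told apart.

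Among the 8 channel genes, transcripts for the L-type pore (Cacna1c), its beta subunit (Cacnb2) and a T-type pore (Cacna1g) were higher in B3AR-Tg. The alpha-2-delta subunit gene Cacna2d1 and the pacemaker channel gene Hcn4 had small mean differences that did not pass the test. Scn4b was higher on average and Hcn2 lower, but neither passed the test over all genes, and the T-type gene Cacna1h was at the limit of detection. By edgeR's quasi-likelihood test, 3 of the 7 tested members passed an adjusted p of 0.05 (Benjamini-Hochberg over 10945 genes), all higher in B3AR-Tg, against 2.03% of all tested genes higher and 2.88% lower (4.91% in either direction). An unadjusted p under 0.05 was reached by 5 of the 7, against 19.3% of all tested genes. Because the members were chosen with earlier results of these data known, these shares are descriptions and not a test of the group. No member had groups that did not overlap, which 0.201% of tested genes showed with B3AR-Tg above WT and 0.247% with B3AR-Tg below. The median log2 fold change (B3AR-Tg minus WT throughout) of the 7 members was 0.33, and that of all tested genes was 0.01.

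**Figure D1:**
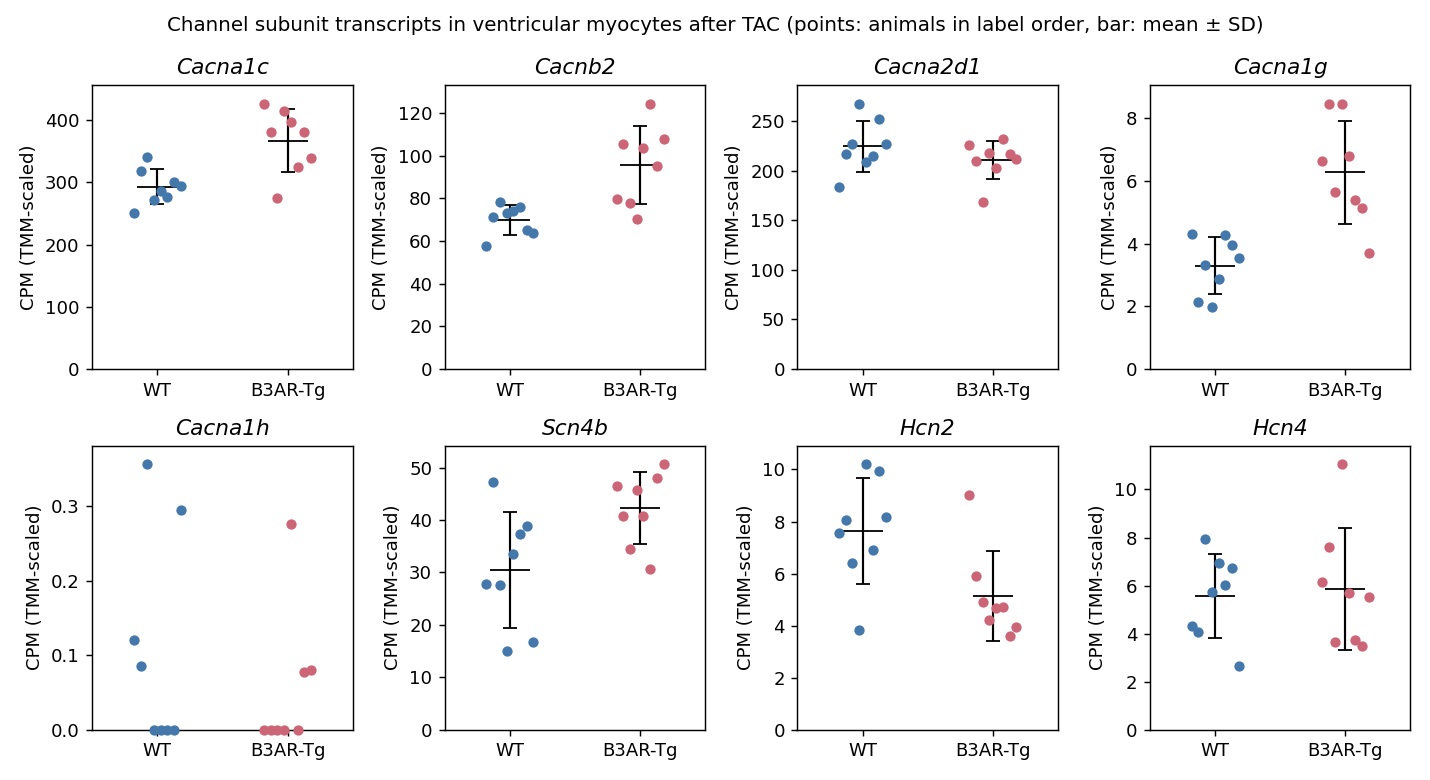
CPM of each of the 8 genes (vertical axes, linear, each from 0) in WT and B3AR-Tg animals after TAC; points are animals in label order, and bars are the mean ± SD over 8 animals, left out for Cacna1h, whose libraries held 0 to 3 counts. For Cacna1g, 7 of the 8 B3AR-Tg animals lie above the highest WT animal at 4.32 CPM, and for Hcn2 a lone B3AR-Tg animal reaches 9.04 CPM.

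Cacna1c (ENSMUSG00000051331) encodes the pore-forming subunit of the cardiac L-type calcium channel. It lies on chromosome 6 from 118587240 to 119196418, minus strand (positions of all genes are from GENCODE M21 on GRCm38, matched by gene ID). WT animals ran from 251 to 341 CPM with a median of 291, and B3AR-Tg animals from 275 to 427 CPM with a median of 381. The ranges overlapped, with 5 of the 8 B3AR-Tg animals above the highest WT animal and B3AR-Tg replicates 3, 6 and 8 inside the WT range. The mean rose from 293 ± 28.1 (SD, n = 8) to 367 ± 50.9 CPM (SD, n = 8), 1.25-fold with a 95% confidence interval of 1.10 to 1.43 (log2 fold change 0.33, standard error 0.09, edgeR adjusted p = 0.0394). This call is near the threshold. Without any 1 of WT replicates 1, 4, 5, 6 and 8 or B3AR-Tg replicates 1, 2, 4, 5, 7 and 8, the edgeR adjusted p was between 0.0501 and 0.0839, with log2 fold changes of 0.30 to 0.35.

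Cacnb2 (ENSMUSG00000057914, chromosome 2, 14603088 to 14987908, plus strand) encodes the cytoplasmic beta subunit that predominates in heart and brings the L-type pore to the membrane. WT animals spanned 57.6 to 78.2 CPM around a median of 72.2, and B3AR-Tg animals 70.2 to 124 CPM around a median of 99.1. The highest WT animal was exceeded by 6 of the 8 B3AR-Tg animals, while B3AR-Tg replicates 3 and 4 stayed below it. The mean rose from 69.9 ± 7.01 to 95.4 ± 18.3 CPM (SD, n = 8 each), 1.37-fold (log2 fold change 0.45, standard error 0.11, edgeR adjusted p = 0.0191). The spread was wider in B3AR-Tg, with a coefficient of variation of 19.2% against 10.04% in WT, where counting error alone would give 3.07% and 4.01%. GENCODE M21 places exons of antisense and pseudogene models on the opposite strand of Cacnb2, and whether the counting used strand was not given in the sources used here.

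Cacna2d1 (ENSMUSG00000040118, chromosome 5, 15934691 to 16374511, plus strand) encodes the alpha-2-delta subunit, a glycoprotein that raises the surface density of the channel and is the target of gabapentin. WT animals held 184 to 268 CPM (median 222) and B3AR-Tg animals 168 to 232 (median 214). B3AR-Tg animals were below the WT median in 6 of 8 cases. Means were 225 ± 25.8 and 211 ± 19.4 CPM (SD, n = 8 each), for a log2 fold change of -0.09 (95% confidence interval -0.27 to 0.08, edgeR adjusted p = 0.563).

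The within-animal ratio of these subunits does not depend on how libraries are scaled. For every 100 Cacna1c counts, a WT animal held between 66.6 and 98.4 Cacna2d1 counts (median 75.2), and a B3AR-Tg animal between 51.1 and 71.4 (median 56.0). All but 1 of the B3AR-Tg animals lay below the lowest WT animal, the exception being replicate 6 at 71.4. The mean log2 ratio was lower in B3AR-Tg by 0.41, from -0.38 ± 0.18 to -0.80 ± 0.16 (SD, n = 8 each; exact permutation p = 0.000466 over all splits of the animals, two-sided, adjusted p = 0.00280 over the 6 ratios computed). The ratio of Cacnb2 to Cacna1c did not pass the test: 23.9 ± 2.35 Cacnb2 counts per 100 of Cacna1c in WT and 26.6 ± 6.84 in B3AR-Tg (SD, n = 8 each; exact permutation p = 0.457). Its log2 value ranged from -2.21 to -1.87 in WT and from -2.56 to -1.38 in B3AR-Tg, so the animals of the transgenic line spread to both sides of the WT range.

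**Figure D2:**
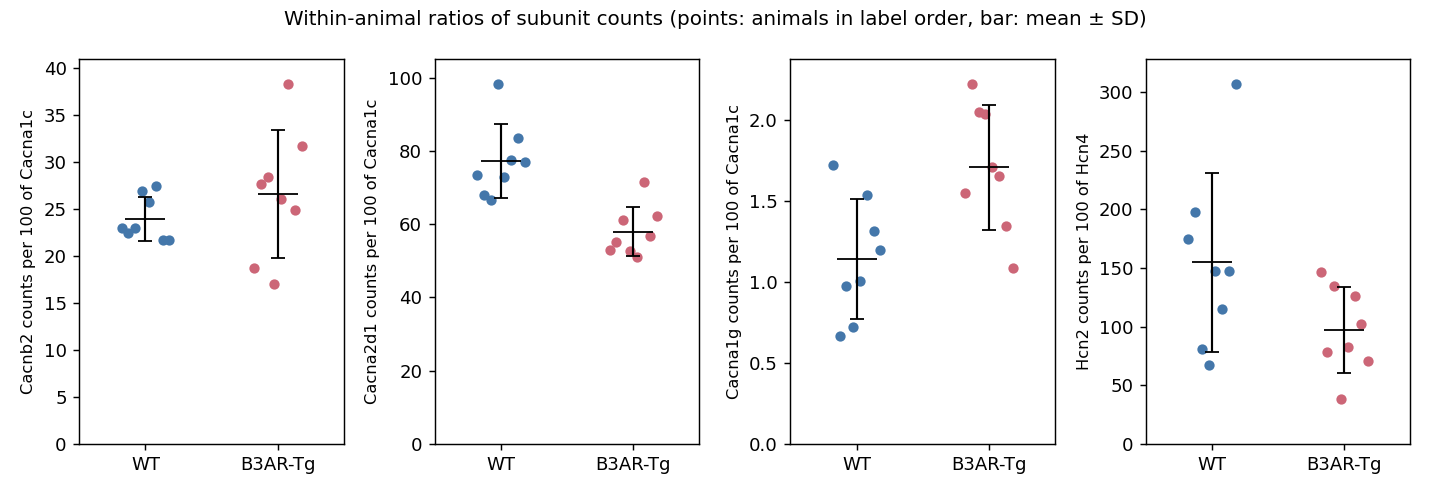
Counts of a subunit per 100 counts of its partner within each animal (vertical axes, linear, from 0) for WT and B3AR-Tg; points are animals in label order and bars are the mean ± SD over 8 animals. Cacna2d1 per 100 of Cacna1c lies between 66.6 and 98.4 in WT and between 51.1 and 71.4 in B3AR-Tg, while the Hcn2 to Hcn4 ratio spans 67.2 to 307 in WT.

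Upstream sequence is shown for this pair of genes, since their ratio differed with the smallest p of the 6 ratios; the files hold no binding or chromatin data for it. The bases are the 250 before a transcription start in RefSeq on GRCm38.p6, 5′ to 3′ on the gene's strand, chosen from windows that touch no GENCODE exon, with GC boxes (GGGCGG on either strand, overlapping copies included) in capitals. The Cacna2d1 window is chr5:15934441-15934690, plus strand, and the Cacna1c window, before an internal start, is chr6:118757975-118758224, minus strand.
Cacna2d1: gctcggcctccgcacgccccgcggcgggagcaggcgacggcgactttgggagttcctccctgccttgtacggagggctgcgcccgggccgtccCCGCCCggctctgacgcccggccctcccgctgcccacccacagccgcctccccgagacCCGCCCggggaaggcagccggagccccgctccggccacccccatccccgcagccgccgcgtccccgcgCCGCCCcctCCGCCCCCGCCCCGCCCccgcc
Cacna1c: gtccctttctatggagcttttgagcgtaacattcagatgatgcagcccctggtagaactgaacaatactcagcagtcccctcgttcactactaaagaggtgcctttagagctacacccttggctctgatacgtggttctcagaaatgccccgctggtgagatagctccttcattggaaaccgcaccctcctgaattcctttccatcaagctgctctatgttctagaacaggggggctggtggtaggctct
The Cacna2d1 window was 82.4% G and C and held 6 GC boxes, whereas this Cacna1c window was 50.4% G and C and held 0. The pair of windows does not stand for all starts: before another Cacna1c start, in a window not printed because it touches GENCODE exons, G and C made up 82.8% and there were also 6 GC boxes. GC boxes were found in 32.7% of the 32851 promoter windows of the same length. RefSeq lists several starts for Cacna1c, and gene-level counts do not show which were used. A cyclic AMP response element (TGACGTCA, in 1.55% of windows), the MCAT core (CATTCC, 12.6%) and the MEF2-class motif (3.2%), searched on both strands, were in 0 of the 9 windows of the 6 members with an entry. Cacna1g and Cacna1h had no entry.

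Cacna1g (ENSMUSG00000020866, chromosome 11, 94408391 to 94474198, minus strand) encodes the T-type pore that is the main one of the adult sinoatrial node. Levels were 1.96 to 4.32 CPM in the WT animals (median 3.43), compared with 3.69 to 8.48 CPM in the B3AR-Tg animals (median 6.13). All 8 B3AR-Tg animals were above the WT median and 7 were above the highest WT animal, B3AR-Tg replicate 8 being the exception. The mean rose from 3.29 ± 0.910 to 6.27 ± 1.65 CPM (SD, n = 8 each), 1.92-fold with a 95% confidence interval of 1.43 to 2.56 (log2 fold change 0.94, standard error 0.20, edgeR adjusted p = 0.0119). Counts were small, 22 to 36 in WT libraries and 46 to 99 in B3AR-Tg libraries, and counting error alone would give coefficients of variation of 18.9% and 12.1% where 27.6% and 26.3% were seen. Relative to Cacna1c, WT animals held 0.668 to 1.72 Cacna1g counts per 100 and B3AR-Tg animals 1.09 to 2.23, a difference in mean log2 ratio of 0.60 (exact permutation p = 0.0135, adjusted p = 0.0379 over 6 ratios). Without any 1 of WT replicates 2, 3 and 8 or B3AR-Tg replicates 1, 2, 3, 4 and 6, that adjusted p was between 0.0522 and 0.0755 with differences of 0.50 to 0.62.

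Cacna1h (ENSMUSG00000024112, chromosome 17, 25374285 to 25433783, minus strand) encodes the other T-type pore known from ventricle. WT replicates 1 to 8 held 1, 1, 3, 0, 0, 0, 0 and 3 counts, and B3AR-Tg replicates held 0, 0, 0, 0, 3, 0, 1 and 1. No library exceeded the floor of 3 counts, which equals 0.201 to 0.487 CPM and covers counting error only. A difference in Cacna1h was not detectable at this depth. Its planned ratio to Cacna1g is therefore a ratio to added counts rather than to a measured level and is given only with the processing alternatives. The exons of Cacna1h overlap those of Tpsg1 on the opposite strand.

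Scn4b (ENSMUSG00000046480, chromosome 9, 45138395 to 45154152, plus strand) encodes a beta subunit of the cardiac sodium channel, a membrane protein that shapes gating and resurgent current. WT animals ran from 15.0 to 47.3 CPM (median 30.7) and B3AR-Tg animals from 30.7 to 50.7 CPM (median 43.3). All 8 B3AR-Tg animals were above the WT median (replicate 6 only just), but only 2 were above WT replicate 2, the highest WT animal. WT replicates 4 and 8, at 15.0 and 16.8 CPM, were the lowest of all. The means were 30.5 ± 11.1 and 42.3 ± 6.89 CPM (SD, n = 8 each), and the log2 fold change of 0.47 (standard error 0.19, 95% confidence interval 0.09 to 0.86) did not pass over all genes (edgeR adjusted p = 0.156, unadjusted p = 0.0189).

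HCN channels carry the pacemaker current and open further when cyclic AMP binds. Hcn2 (ENSMUSG00000020331, chromosome 10, 79716634 to 79736108, plus strand) is the main HCN gene of ventricular myocytes, and Hcn4 (ENSMUSG00000032338, chromosome 9, 58823412 to 58863175, plus strand) is that of the sinoatrial node. Hcn2 lay between 3.84 and 10.2 CPM in the WT animals (median 7.81) and between 3.58 and 9.04 CPM in the B3AR-Tg animals (median 4.69). In B3AR-Tg, 7 of 8 animals were below the WT median, while replicate 1, the deepest library, stood at 9.04 CPM; in WT, replicate 4 was low at 3.84 CPM. Mean Hcn2 was 7.64 ± 2.03 and 5.12 ± 1.73 CPM (SD, n = 8 each), a difference that did not pass (log2 fold change -0.56, standard error 0.20, edgeR adjusted p = 0.121, unadjusted p = 0.0121). Without B3AR-Tg replicate 1 it passed, at -0.73 (edgeR adjusted p = 0.0269).

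Hcn4 spanned 2.65 to 7.95 CPM among WT animals (median 5.87) and 3.50 to 11.05 CPM among B3AR-Tg animals (median 5.62), so the ranges overlapped widely. The means were 5.55 ± 1.75 and 5.86 ± 2.54 CPM (SD, n = 8 each), with a 95% confidence interval for the log2 fold change of -0.44 to 0.58 (edgeR adjusted p = 0.914). The highest animal was B3AR-Tg replicate 4, the shallowest library, with 68 counts. Hcn2 counts per 100 of Hcn4 were 155 ± 76.0 in WT and 97.4 ± 36.8 in B3AR-Tg (SD, n = 8 each), and the log2 ratio did not pass the test (difference -0.62, exact permutation p = 0.0816, adjusted p = 0.0979). Without WT replicate 4 the adjusted p was 0.0420, at -0.77.

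The windows before the RefSeq starts of this pair, shown because the paralogs gave different estimates, both hold GC boxes (capitals, as above). They are chr10:79716384-79716633 for Hcn2 and chr9:58822699-58822948 for Hcn4, both plus strand on GRCm38.p6.
Hcn2: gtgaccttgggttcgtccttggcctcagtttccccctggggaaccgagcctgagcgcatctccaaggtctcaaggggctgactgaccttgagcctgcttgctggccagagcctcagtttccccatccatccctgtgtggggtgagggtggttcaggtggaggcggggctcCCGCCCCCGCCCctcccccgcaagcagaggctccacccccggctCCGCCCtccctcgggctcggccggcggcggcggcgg
Hcn4: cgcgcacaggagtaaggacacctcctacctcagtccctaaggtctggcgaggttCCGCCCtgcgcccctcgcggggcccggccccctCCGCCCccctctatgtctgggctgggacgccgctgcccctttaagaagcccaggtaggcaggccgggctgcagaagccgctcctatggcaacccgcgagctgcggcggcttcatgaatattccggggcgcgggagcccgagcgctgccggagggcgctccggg
The Hcn2 window was 70.4% and the Hcn4 window 71.2% G and C, with 3 and 2 GC boxes.

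Within each genotype, the 7 tested members were compared with a load score, the mean of centred log2 CPM of Nppa, Nppb, Myh7 and Acta1, transcripts that rise in overloaded ventricle, and with the other-cell score. Of the 28 relations, 0 passed after adjustment by Pearson r or Spearman rho. An unadjusted exact permutation p under 0.05 was reached by 1 of the 28 Pearson r values, that of Hcn4 with load in WT, where animals with more load marker transcript had less Hcn4 (Pearson r = -0.72, exact permutation p = 0.0413, adjusted p = 0.834; Spearman rho = -0.81, exact permutation p = 0.0218, adjusted p = 0.305; n = 8). Without the 2 animals farthest from the median score, r was -0.93. By rho the unadjusted p was under 0.05 for 2 relations, this one and that of Cacna1c with the other-cell score in WT. In B3AR-Tg the estimate had the same sign (r = -0.59, exact permutation p = 0.117, adjusted p = 0.834; rho = -0.57, exact permutation p = 0.151, adjusted p = 0.684; n = 8), and r was -0.69 without the 2 farthest animals. Removing the 2 farthest animals also moved other load relations, in both directions. For Cacna1c in B3AR-Tg r went from -0.18 to -0.84, and for Scn4b in WT from -0.40 to -0.80. For Cacna1g in WT it went from -0.63 to 0.10. A large r after that removal was thus not particular to Hcn4. The load score itself was 1.08 ± 0.87 in WT and -1.08 ± 0.69 in B3AR-Tg (SD, n = 8 each).

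**Figure D3:**
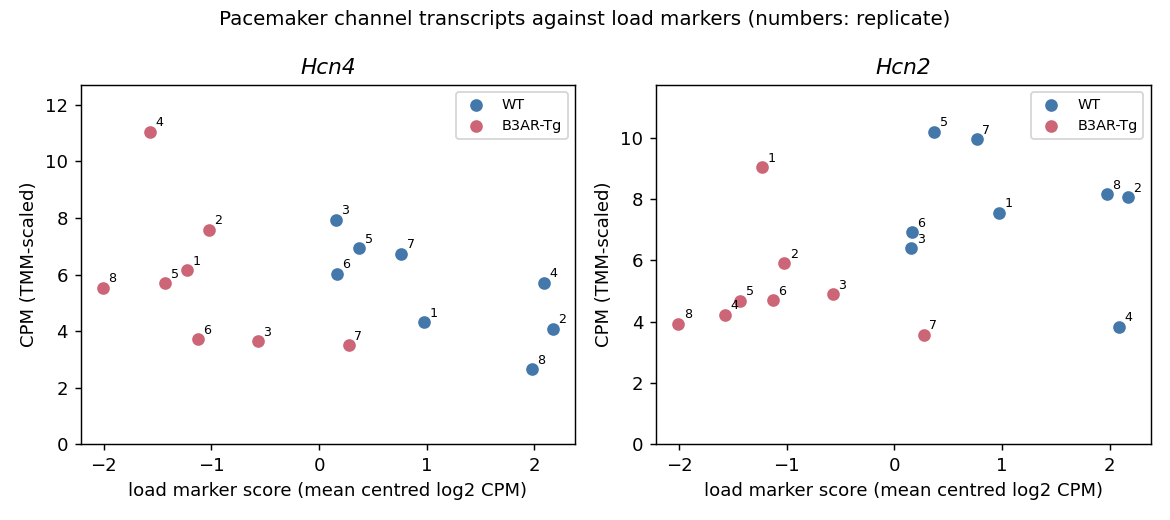
CPM of Hcn4 (left) and Hcn2 (right) against the load marker score (mean centred log2 CPM of Nppa, Nppb, Myh7 and Acta1) in each animal, coloured by genotype and numbered by replicate. For Hcn4 r is -0.72 in WT and -0.59 in B3AR-Tg, neither past the threshold after adjustment. For Hcn2 the genotypes overlap and their difference did not pass: 7 B3AR-Tg animals lie below the WT median, but only 1 lies below the lowest WT animal.

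Nodal tissue would carry Hcn4 with it, so markers of atrial and nodal myocytes were read beside it. All 10 were in the table, 7 were tested and 0 passed edgeR's test, with 0 at an unadjusted p under 0.05. Their summed level was 19.6 to 85.4 CPM among WT animals and 7.63 to 55.6 CPM among B3AR-Tg animals. The nodal transcription factor genes Shox2 and Isl1 held 8 and 1 counts over all 16 libraries, whereas Tbx3 averaged 1.99 ± 1.08 CPM for WT and 1.84 ± 0.932 CPM for B3AR-Tg (SD, n = 8 each). Their part in the Hcn4 level was not tested.

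The other-cell score moved with genotype (r = -0.68 with genotype over the 16 animals). With that score as a covariate edgeR called 0 members, and 37 of all 10945 tested genes. In that fit 5 members had an unadjusted p under 0.05, but the share of all genes is not given here, so this count has no comparison. The log2 fold changes were then 0.41 for Cacna1c (edgeR adjusted p = 0.113), 0.34 for Cacnb2 (0.259) and 0.69 for Cacna1g (0.191). Inside a genotype, none of these 3 genes gave a relation with the score that passed. For Cacna1c, r was 0.58 in WT (exact permutation p = 0.137, r = 0.54 without the 2 farthest animals) and rho was 0.86 (exact permutation p = 0.0107, adjusted p = 0.300). In B3AR-Tg r was 0.20 (exact permutation p = 0.623, rho = 0.45, 0.42 without them). For Cacna1g it was -0.44 in WT (exact permutation p = 0.282, rho = -0.40, 0.36 without them) and -0.39 in B3AR-Tg (exact permutation p = 0.340, rho = -0.36, -0.53 without them). For Cacnb2 it was -0.04 (exact permutation p = 0.922, rho = -0.07, 0.05 without them) and -0.36 (exact permutation p = 0.403, rho = -0.29, 0.07 without them). The sign for Cacna1g in WT and for Cacnb2 in both genotypes therefore rested on those animals. The adjusted p was at least 0.834 for each of these r values, and at least 0.300 for each rho.

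To place the members, 8 lists of channel, regulator and transport genes were read from the same fit. They hold 79 genes besides the members, of which 38 were tested, 16 higher and 22 lower in B3AR-Tg on average, with a median log2 fold change of -0.02. Of these, 2 passed as higher and 4 as lower, where 2.03% of all tested genes passed as higher and 2.88% as lower. For the counts by list below, an unadjusted p under 0.05 was reached by 19.3% of all tested genes in the same edgeR fit. The lists are short and no set test was run. Nedd4l, the gene of a ubiquitin ligase, stands in both the sodium partner and the pacemaker list and is counted once in the totals over the 8 lists.

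Among calcium channel pores, 10 genes are listed and 3 were tested. Cacna1s, the skeletal muscle L-type pore, averaged 14.6 ± 2.98 CPM for WT and 13.6 ± 3.31 for B3AR-Tg (SD, n = 8 each; edgeR adjusted p = 0.774). Cacna1d, the L-type pore of nodal and atrial cells, held 2 to 19 counts a library and was not tested. Of the 16 auxiliary subunits 4 were tested, and 3 of these passed. Besides Cacnb2, Cacng6, a gamma subunit, rose from 0.585 ± 0.506 to 2.56 ± 1.58 CPM (SD, n = 8 each; log2 fold change 2.13, standard error 0.50, edgeR adjusted p = 0.0178) from libraries of 0 to 11 counts in WT and 8 to 59 in B3AR-Tg. The Cacng6 call was lost with replicate number as a block (edgeR adjusted p = 0.0528) and with the other-cell score as a covariate (0.0876). No result was available for it with counts thinned to the smallest library. Cacnb1, the beta subunit of skeletal muscle, moved opposite to Cacnb2.

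Cacnb1 fell from 6.67 ± 2.92 to 3.67 ± 1.00 CPM (SD, n = 8 each; log2 fold change -0.87, standard error 0.24, edgeR adjusted p = 0.0392). WT replicate 8 at 11.3 CPM was the highest animal, and the B3AR-Tg animals lay between 2.92 and 5.61 CPM. Leaving out any 1 of WT replicates 1, 2, 4 and 8 or B3AR-Tg replicates 1, 3, 4, 5, 6 and 8 ended this call (edgeR adjusted p 0.0534 to 0.0915), as did scaling by library size only (0.0690) and limma voom (0.0655). It was also lost with replicate number as a block (edgeR adjusted p = 0.129) and with the other-cell score as a covariate (0.206). The same held with counts thinned to the smallest library (0.0587) and without B3AR-Tg replicates 1 and 4 together (0.105).

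Of 15 regulators of calcium channels 11 were tested, with 0 higher and 2 lower. Bin1, a membrane-bending protein of the T-tubule that helps to place L-type channels there, fell from 2.85 ± 1.69 to 0.498 ± 0.354 CPM (SD, n = 8 each; log2 fold change -2.50, standard error 0.46, edgeR adjusted p = 0.00507). Its B3AR-Tg libraries held 0 to 13 counts. The Bin1 call was lost with the other-cell score as a covariate (edgeR adjusted p = 0.158), and no result was available with counts thinned to the smallest library. Sri, which encodes the calcium-binding protein sorcin, fell from 19.0 ± 4.99 to 12.01 ± 2.85 CPM (SD, n = 8 each; log2 fold change -0.66, edgeR adjusted p = 0.0219), and the call was lost without WT replicate 4 (edgeR adjusted p = 0.0541) or B3AR-Tg replicate 5 (0.0514). It was also lost with counts thinned to the smallest library (edgeR adjusted p = 0.0539) and with the other-cell score as a covariate (0.180). Rrad, a small GTPase that restrains the L-type channel until protein kinase A acts on it, was at 368 ± 54.2 and 423 ± 80.1 CPM (SD, n = 8 each; edgeR adjusted p = 0.379). Its relative Gem was at 2.04 ± 0.948 and 1.99 ± 0.899 CPM (edgeR adjusted p = 0.935).

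Of 10 sodium channel pores 3 were tested, and Scn4a passed. Scn4a, the skeletal muscle sodium channel, spanned 7.17 to 15.7 CPM among WT animals and 11.7 to 28.4 CPM among B3AR-Tg animals, where only replicate 3 lay inside the WT range. Its mean rose from 12.04 ± 2.93 to 21.6 ± 5.33 CPM (SD, n = 8 each; log2 fold change 0.84, standard error 0.17, edgeR adjusted p = 0.00867). Of the 4 beta subunits 2 were tested and 0 passed edgeR's test, although 2 had an unadjusted p under 0.05, Scn4b among them. Of 12 sodium channel partners 10 were tested and 0 passed edgeR's test, although 5 had an unadjusted p under 0.05. Nearest to the threshold was Slmap, a sarcolemmal membrane protein, with a log2 fold change of -0.49 (edgeR adjusted p = 0.0524), a gene singled out after its values were seen.

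Of the 7 pacemaker channel genes and partners 4 were tested and 0 passed edgeR's test, while 2 had an unadjusted p under 0.05. Hcn3 held 0 to 3 counts a library. Of 14 genes for sodium and calcium transport across the sarcolemma 9 were tested, and Atp2b4, a plasma membrane calcium pump, passed as lower. It fell from 2.94 ± 0.736 to 1.48 ± 0.692 CPM (SD, n = 8 each; log2 fold change -1.004, edgeR adjusted p = 0.0388). That call was lost (edgeR adjusted p 0.0501 to 0.0818) on leaving out any 1 of WT replicates 1 to 7 or B3AR-Tg replicates 1, 2, 3, 5 and 6, as well as with library size only (0.0674) and with no filter on low counts (0.0604). It was also lost with replicate number as a block (edgeR adjusted p = 0.109) and with the other-cell score as a covariate (0.508). Slc8a1, the sodium-calcium exchanger, averaged 1387 ± 336 CPM for WT and 1218 ± 159 CPM for B3AR-Tg (SD, n = 8 each; log2 fold change -0.19, edgeR adjusted p = 0.443). The 4 load markers all passed as lower, with log2 fold changes of -3.99 for Nppa, -2.03 for Myh7, -1.74 for Acta1 and -1.13 for Nppb. With the other-cell score as a covariate none of the 4 passed (edgeR adjusted p = 0.0940 for Nppa, 0.135 for Myh7, 0.266 for Acta1 and 0.180 for Nppb). For Nppb the edgeR adjusted p was between 0.0507 and 0.0532 without WT replicate 4 or B3AR-Tg replicate 5, and for Acta1 between 0.0530 and 0.0562 without WT replicate 2 or B3AR-Tg replicate 5.

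**Figure D4:**
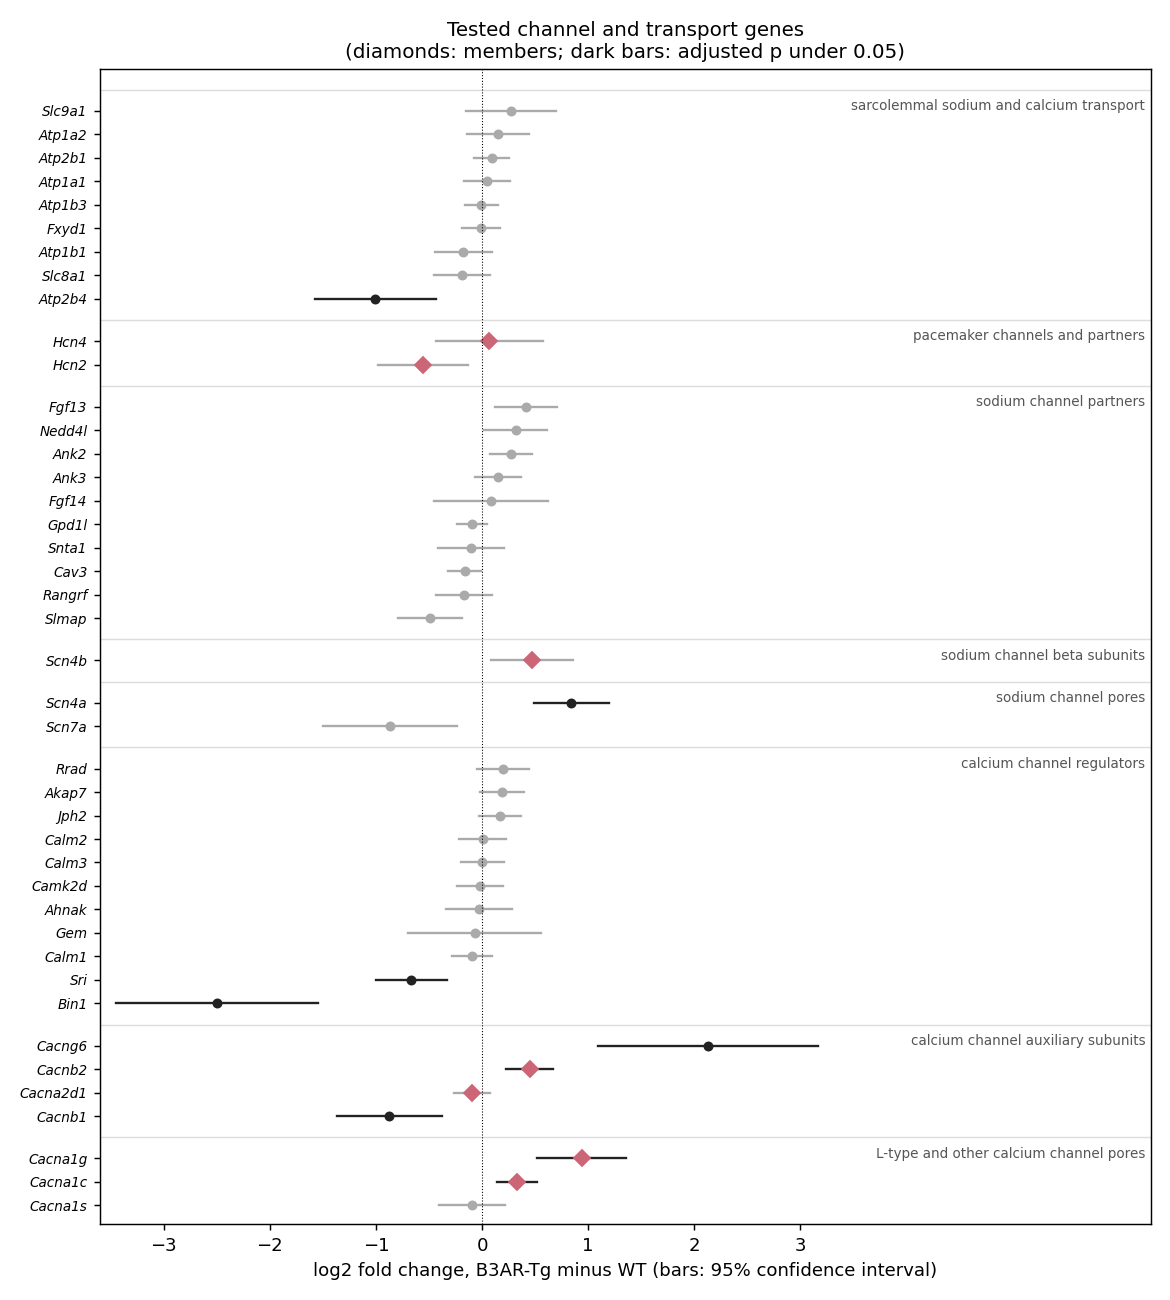
Log2 fold change (B3AR-Tg minus WT, horizontal axis) with its 95% confidence interval for 42 of the 45 tested genes of the 8 channel and transport lists, grouped by list; diamonds are the members and dark bars have an edgeR adjusted p under 0.05. Cacna1g at 0.94, Cacnb2 at 0.45 and Cacna1c at 0.33 lie to the right of 0 and Hcn2 at -0.56 to the left with a grey bar.

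Per kilobase of the longest coding transcript in GENCODE M21, the order of levels in WT was Cacna2d1, Cacna1c, Cacnb2, Scn4b, Hcn2, Hcn4, Cacna1g and Cacna1h. In CPM per kilobase the WT means were 30.2 ± 3.47, 22.2 ± 2.14, 17.7 ± 1.78, 6.13 ± 2.22, 2.39 ± 0.635, 0.907 ± 0.286 and 0.393 ± 0.109 for the 7 above the floor (SD, n = 8 each). The L-type subunits thus stood above the others, Scn4b came between, and T-type and HCN genes were lowest. Neighbours with overlapping WT ranges were Cacna2d1 and Cacna1c, Cacna1c and Cacnb2, Scn4b and Hcn2, Hcn2 and Hcn4, and Hcn4 and Cacna1g. In B3AR-Tg the order was the same, with Cacna2d1 at 28.3 ± 2.61 and Cacna1c at 27.9 ± 3.87 CPM per kilobase (SD, n = 8 each). The order of the 3 L-type subunits depends on the transcript taken, because the longest and shortest coding transcripts differ in length (13162 and 6462 bases for Cacna1c, 3945 and 430 for Cacnb2, 7436 and 1272 for Cacna2d1).

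Over the 16 animals, with each gene centred on its genotype mean, log2 CPM of the 21 pairs of tested members had Pearson r between -0.38 and 0.49, as a description. The highest were Cacna1c with Hcn4 (0.49) and with Cacna2d1 (0.48), and the lowest was Cacnb2 with Cacna1g (-0.38). Cacna1c and Cacnb2, both higher in B3AR-Tg, had r = -0.01, made up of 0.54 in WT and -0.20 in B3AR-Tg. Of 10944 other genes, those most like Cacna1c included Phlda1 (r = 0.84) and Arid5b (0.83). For Cacnb2 the top 3 were Lysmd1 (0.86), Ogt (0.85) and Mfap1a (0.83), and for Cacna1g they were Anks1 (0.82), Map4k2 (0.81) and Mdga1 (0.81). None of these 8 genes passed edgeR's test between genotypes, with adjusted p-values of 0.113 to 0.997.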

How the data were processed

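RNA of 16 mice, 8 per genotype, was sequenced. The authors deposited whole-number counts per gene without normalization, and per the submitters' processing notes Salmon and GRCm39 were used, with no role or version stated, so the counts may be rounded estimates. Annotation release and strand setting were not given in the sources used here. Columns were matched to animals by the name in each title. Groups were compared with edgeR 4.0.16 (quasi-likelihood F test, R 4.3.3) after filterByExpr (minimum count 10, total 15) and TMM scaling, with genotype only in the model. CPM are counts per 1000000 of the TMM-scaled library total, and log2 CPM used a prior count of 2. Ratios used counts plus 0.5. Limma 3.58.1 and DESeq2 1.42.0 served as alternatives. Exact permutations over all splits of the animals can give no p under 0.000155. The test was tested on simulated data first. Of the gene IDs, 35394 were in GENCODE M21. Promoter sequence came from RefSeq (GRCm38.p6) for 6 of 8 members.

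The members and lists were chosen with earlier results of these data known. The text names all members, up to 4 genes per list and direction past the threshold, Cacna1d, Cacnb1, Hcn3, Rrad, Gem, Slc8a1 and the load markers, and the 3 genes most like each called member. Results for 4 further genes under this rule, with 1 of the 6 ratios, are not reported here, but they stay in the fits, the counts and the adjustment. The GC box and TATA motifs were added after the data were seen. Library totals of 5985335 to 14365864 counts set the precision. Counting intervals and floors cover counting error only.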

Additional observations from a re-analysis of the deposited data

Results flagged for a closer look

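Each group of 8 animals was searched for a lowest or highest animal set apart by more than Dixon's 95% critical value. Among 62 groups of named genes, ratios and scores, 2 held such an animal; about 3.1 would do so by chance in that many groups.

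Cacna2d1 was low in B3AR-Tg replicate 3, at 168 CPM, while the remaining transgenic animals held 203 to 232 CPM, a gap of 0.584 of the range on log2(CPM + 0.1). The same animal was the lowest B3AR-Tg animal for Cacna1c (275 CPM). Atp2b4 was low in WT replicate 8, at 1.28 CPM, a gap of 0.699 of the range. Without that animal the log2 fold change of Atp2b4 was -1.12.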

How the results depend on the processing

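The 29 alternative fits changed scaling, filter, test, covariate, block, depth or animals. Thinning to the smallest library, and leaving out B3AR-Tg replicates 1 and 4 together, were chosen after seeing the data. Cacna1c, Cacnb2, Cacna1g, Scn4b and Hcn2 kept their direction in each of them. DESeq2, limma voom, RLE, upper quartile and library-size scaling, both filters, the animal number and the removal of mitochondrial genes with Gm20594 each called 3 members, the same genes. The number called over all genes was not constant in these fits. It was above the 537 of the main fit with DESeq2, voom and the animal number. It was below 537 with library size only and with no low-count filter, where 20301 genes were tested. The unchanged 3 is therefore a count without a comparison to all genes.

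The other-cell score as a covariate left 37 of 537 genes called and 0 members, and 1 of 9 genes of the channel and transport lists (Scn4a). The counts of list genes in this section include the members. Replicate numbers did not pair the animals (r of same-numbered animals -0.22 to 0.09, own number best in 0 of 8 pairs). With the replicate block, 230 genes, 1 member (Cacnb2) and 4 list genes were called, and the log2 ratios of Cacna1g to Cacna1c (0.60) and of Cacna1h to Cacna1g (-1.57) missed the threshold (both adjusted p = 0.152). The latter ratio rests on 0 to 3 counts of Cacna1h. Leaving out B3AR-Tg replicates 1 and 4 together ended the call of Cacna1c (0.26, edgeR adjusted p = 0.129), brought Hcn2 past the threshold (-0.72, 0.0420) and turned Hcn4 to -0.15; thinning turned Hcn4 to -0.024. Gem turned to 0.0076 with library size only, 0.057 with voom and 0.49 with the covariate. The r of Cacnb2 with the other-cell score in WT turned to 0.46 with library size only, and the r of Cacna1c with other cells score in WT was then 0.83 (adjusted p = 0.206).

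Leaving out 1 animal gave 272 to 675 genes, with 272 without WT replicate 4, 277 without B3AR-Tg replicate 5 and 345 without B3AR-Tg replicate 8. It gave 2 to 3 members and 5 to 11 list genes. Ranges were -0.10 to 0.16 for Hcn4 and -0.24 to 0.10 for Gem. For the log2 ratios they were 0.50 to 0.70 (Cacna1g to Cacna1c), -1.84 to -1.33 (Cacna1h to Cacna1g) and -0.77 to -0.45 (Hcn2 to Hcn4). The r with other cells was -0.35 to 0.16 for Cacnb2 in WT and -0.76 to 0.036 for Cacna1g in B3AR-Tg. The ratio of Cacna2d1 to Cacna1c stayed past the threshold in all 18 of its alternatives. Of these, 16 left out 1 animal (exact permutation adjusted p 0.000932 to 0.00653). The others were a larger added count and the replicate block, where the ratio passed only narrowly. It was not tested with the other-cell score as a covariate, with thinned counts or without B3AR-Tg replicates 1 and 4 together. The causes of the changes in this section were not tested. Depth limits Cacna1h, Hcn3 and Cacna1d, which could not be tested, and Bin1 and Cacng6, with 0 counts in some libraries.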

Other observations

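Conduction and nodal transcripts were read because HCN and T-type genes are typical of those cells. Of 5 Purkinje and conduction markers 2 were tested, and Irx3, a transcription factor gene of the ventricular conduction system, was lower in B3AR-Tg, from 10.4 ± 2.27 to 6.61 ± 1.13 CPM (SD, n = 8 each; log2 fold change -0.65, standard error 0.15, edgeR adjusted p = 0.0148). The other one tested, Etv1, did not pass (log2 fold change 0.047, edgeR adjusted p = 0.951). Ryr2, the calcium release channel of the sarcoplasmic reticulum, was higher, from 2160 ± 302 to 2978 ± 630 CPM (SD, n = 8 each; log2 fold change 0.46, standard error 0.12, edgeR adjusted p = 0.0359). It was the only 1 called of the 7 ventricular myocyte markers, all tested, of which 6 were higher and 1 lower on average. How the calls of Irx3 and Ryr2 depend on the processing was not examined.

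Markers of other cells were lower in B3AR-Tg for 5 of 5 tested fibroblast genes (3 called), 6 of 6 endothelial genes (2 called), 4 of 5 mural genes (0 called by edgeR, 1 at an unadjusted p under 0.05) and 2 of 2 leukocyte genes (0 called, 1 unadjusted). The single neural gene tested was not called, with 0 at an unadjusted p under 0.05. Summed fibroblast markers were 31.5 to 89.0 CPM among WT animals against 9.18 to 40.9 among B3AR-Tg animals, and summed leukocyte markers 4.15 to 14.3 against 0.706 to 6.00.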
